A study of Mus musculus with 11 samples.

Results

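The comparison described here is between 2 sets of microarrays of mouse liver endothelium that differed in the signal of their intron control probes. In each array the mean of all 5222 intron control rows was taken, and the 4 of 11 arrays with a mean above 5.6 on the log2 scale (high-intron arrays) were set against the 7 with a mean at or below it (low-intron arrays). RNA came from LSEC, the liver sinusoidal endothelial cells that form the porous lining of the hepatic capillaries, of mice that were 8 weeks old and then ate a high fat diet for 2 weeks. All mice carried floxed alleles of the autophagy gene Atg5 (Atg5lox/lox). The 6 wild type arrays were from mice without Cre. The 5 arrays labelled knockout were from mice that also carried VE-cadherin-Cre, whose promoter is active in endothelium. The high-intron set held wild type 1 and 6 and knockout 3 and 4, and the low-intron set held wild type 2, 3, 4 and 5 and knockout 1, 2 and 5. Both genotypes were thus in both sets, and genotype was a term in the fit of the array sets unless another fit is named.

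Whole-transcript arrays of this kind carry several sorts of control probe. Intron controls match the introns of widely expressed genes, which splicing removes before messenger RNA leaves the nucleus, and serve as negative controls. Exon controls match exons of such genes and serve as positive controls. Antigenomic controls match sequences that the genome does not contain, sorted by their number of G and C bases, and read unspecific binding. Values were normalized across arrays by the submitters, so every difference below is relative to the other rows of the same arrays.

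The intron control mean read 5.96 in wild type 6, 5.94 in wild type 1, 5.75 in knockout 3 and 5.75 in knockout 4. Among the low-intron arrays it read 5.38 in knockout 1, 5.30 in knockout 5, 5.24 in wild type 3, 5.11 in wild type 2, 5.09 in wild type 4, 5.08 in wild type 5 and 5.05 in knockout 2. The threshold fell in the widest gap of that order, between knockout 4 and knockout 1, and the low-intron set itself ran from 3 arrays nearer the threshold to 4 farther from it. The sets were chosen by these measured values, which therefore carry no test. The same holds for the single intron rows, of which 4611 of 5222 had a positive high minus low difference, with a median of 0.60 and a 10th to 90th percentile range of -0.03 to 1.53.

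**Figure D1:**
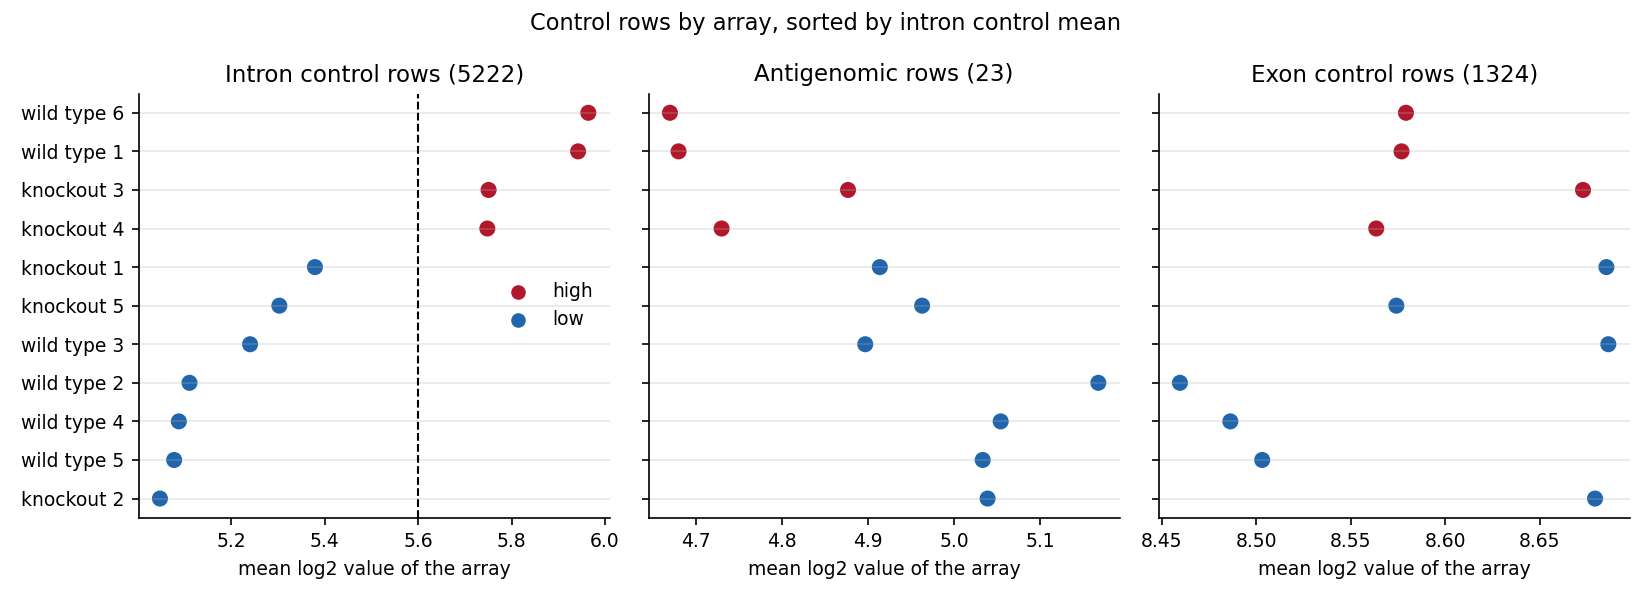
Mean log2 value of the intron, antigenomic and exon control rows (x axes) in each of the 11 arrays (y axis), with high-intron arrays in red, low-intron arrays in blue and the threshold of 5.6 dashed. The intron panel shows how the sets were chosen; the 4 red points lie below all blue points for the antigenomic rows, from 4.67 to 4.88 against 4.90 to 5.17, and among them for the exon controls.

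The antigenomic rows, which the choice did not use, moved the opposite way to the intron rows. Their mean was 4.67 in wild type 6, 4.68 in wild type 1, 4.88 in knockout 3 and 4.73 in knockout 4, and it ran from 4.90 to 5.17 in the low-intron arrays. The sets did not overlap. The means were 4.74 ± 0.095 (SD, n = 4) and 5.01 ± 0.094 (SD, n = 7), a difference of -0.27, with p = 0.0030 when all 330 ways of choosing 4 arrays were enumerated (exact permutation, two-sided; adjusted p = 0.0076 over 5 array measures) and p = 0.0067 when arrays were exchanged only within a genotype; these are the smallest values either test can give. The plot of control rows by array shows this reversal beside the intron means.

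The antigenomic difference was larger for probes rich in G and C. Probes with 3 to 11 G or C bases differed by between -0.13 and -0.04 and overlapped between sets. Probes with 12 to 17 such bases did not overlap, with differences from -0.18 to -0.44, and those with 18 to 25 overlapped, with differences from -0.41 to -0.48. The spike-in RNAs of the External RNA Controls Consortium (ERCC) averaged 5.24 ± 0.015 and 5.37 ± 0.12 (exact permutation p = 0.064, adjusted p = 0.11), which did not pass.

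The exon controls averaged 8.60 ± 0.050 (SD, n = 4) in the high-intron and 8.58 ± 0.10 (SD, n = 7) in the low-intron arrays, a difference of 0.02 that was within the spread between arrays (exact permutation p = 0.80). The gap between exon and intron controls was therefore narrower in the high-intron arrays, at 2.61, 2.63, 2.92 and 2.82 for wild type 6, wild type 1, knockout 3 and knockout 4, than in the low-intron arrays, at 3.27 to 3.63. This gap contains the intron mean that chose the sets, so it follows from that choice and carries no test. The median of the gene rows was 6.63 ± 0.016 against 6.71 ± 0.028 (exact permutation p = 0.0030, adjusted p = 0.0076), a shift of -0.08 with no overlap between the sets. Values are relative to the other rows of the same arrays, intron rows included. This median is thus not independent of the rows that chose the sets, and its p-value is no separate support. The same limit holds for the other array measures. The spread of the gene rows, given as the SD over rows within an array, averaged 2.06 and 2.05 (exact permutation p = 0.67). Scan dates and hybridization batches were not known, and their part in any result was not tested.

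Among the 22206 gene rows, 4117 (18.5% of those tested) passed an adjusted p of 0.05 for high against low in limma's moderated test with genotype as a term. Of these, 1895 were higher in the high-intron arrays (8.53% of all rows) and 2222 lower (10.0%). Differences of at least 2-fold were mostly upward, with 271 rows (1.22%) higher and 71 (0.320%) lower. By the study's own rule, which asks for a 1.5-fold difference and p no higher than 0.05 before adjustment, 1362 rows (6.13%) were higher and 1065 (4.80%) lower. The values of the sets did not overlap at all in 1529 rows (6.89%) that were higher and 1592 (7.17%) that were lower. The median difference over all gene rows was -0.05, and when each array was instead centred on its own median the same fit called 2537 rows higher and 1466 lower, so that higher calls made up 63.4% in place of 46.0%.

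The count of calls depended on single arrays. It was 1700 without wild type 6, 1920 without wild type 1 and 2619 without knockout 4, each a high-intron array, and 4502 without knockout 5. Under each array left out, all 4117 rows kept their direction, but they had been called in these same arrays, so this is a description. In all, 3 arrays read the Y-linked gene Kdm5d above 5, wild type 6 at 7.32, wild type 3 at 7.27 and knockout 3 at 6.29, against 3.17 to 4.07 in the other 8. Without those 3 arrays, an alternative chosen after seeing the data, 779 rows were called. That fit lost wild type 6 and knockout 3 from the high-intron set, so fewer calls may reflect fewer arrays. With all arrays kept and Kdm5d above 5 as a term, also chosen after seeing the data, 2810 rows were called. With the antigenomic mean as a further term, which itself separated the sets, limma called 0 rows (2224 at an unadjusted p under 0.05), and 93.6% of the 4117 rows kept their direction.

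**Figure D2:**
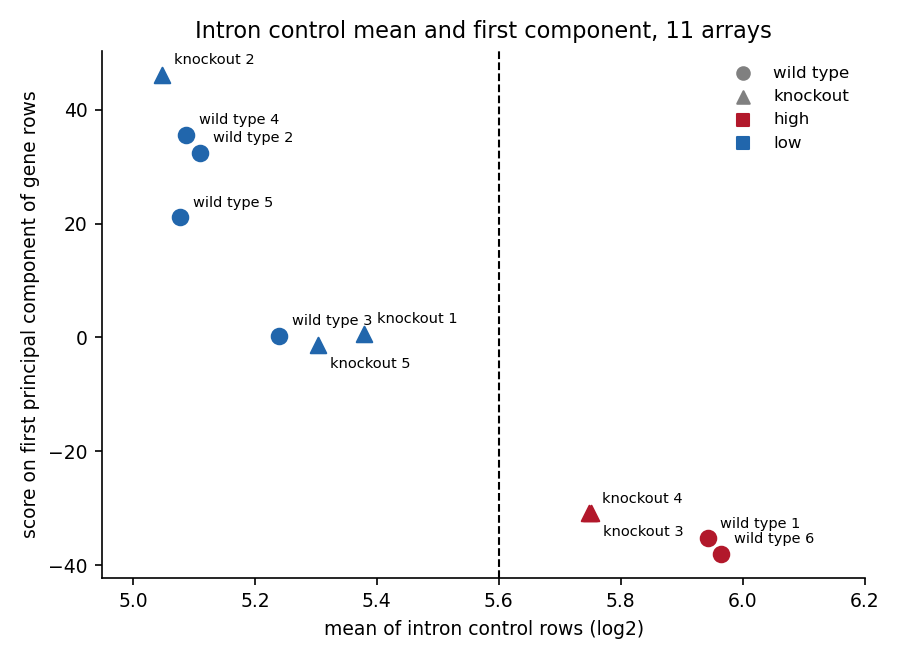
Score of each array on the first principal component of the 22206 gene rows (y axis), against the intron control mean (x axis, log2). Circles are wild type and triangles knockout, red is high-intron and blue low-intron; the high-intron arrays lie between -38.0 and -30.8 and the low-intron arrays between -1.26 and 46.2.

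The first principal component of the gene rows, which held 41.3% of their variance, followed the intron controls although no control row entered it. The high-intron arrays scored -38.0, -35.3, -30.8 and -30.9 for wild type 6, wild type 1, knockout 3 and knockout 4. The 3 low-intron arrays with the next highest intron means (knockout 1, knockout 5 and wild type 3) scored 0.65, -1.26 and 0.30, and the other 4 scored 21.1 to 46.2. The plot of the first component against the intron mean thus shows the high-intron arrays apart from the low-intron arrays, with both genotypes in each set. The low-intron arrays were widely spread, from -1.26 to 46.2. Because the high-intron arrays lay apart, no correlation is given.

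The same contrast was then made in each genotype alone, which uses different arrays on both sides. In the wild type arrays (2 high-intron and 4 low-intron) 1356 rows (6.11%) passed, 604 (2.72%) higher and 752 (3.39%) lower. Of these 1356 rows, 1341 (98.9%) had the same sign in the knockout arrays (2 and 3), where 72.0% of all rows had the same sign in both. A difference of at least 1.5-fold in the same direction in the knockout arrays was seen for 805 (59.4%) of them, against 10.3% of all rows. Their median size was 0.84 in the wild type arrays and 0.65 in the knockout arrays. In the knockout arrays alone 0 rows passed by limma (2985 at an unadjusted p under 0.05), and 0 rows passed for a genotype difference in the high against low contrast (548, or 2.47%, at an unadjusted p under 0.05). All 11 arrays had been normalized together.

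**Figure D3:**
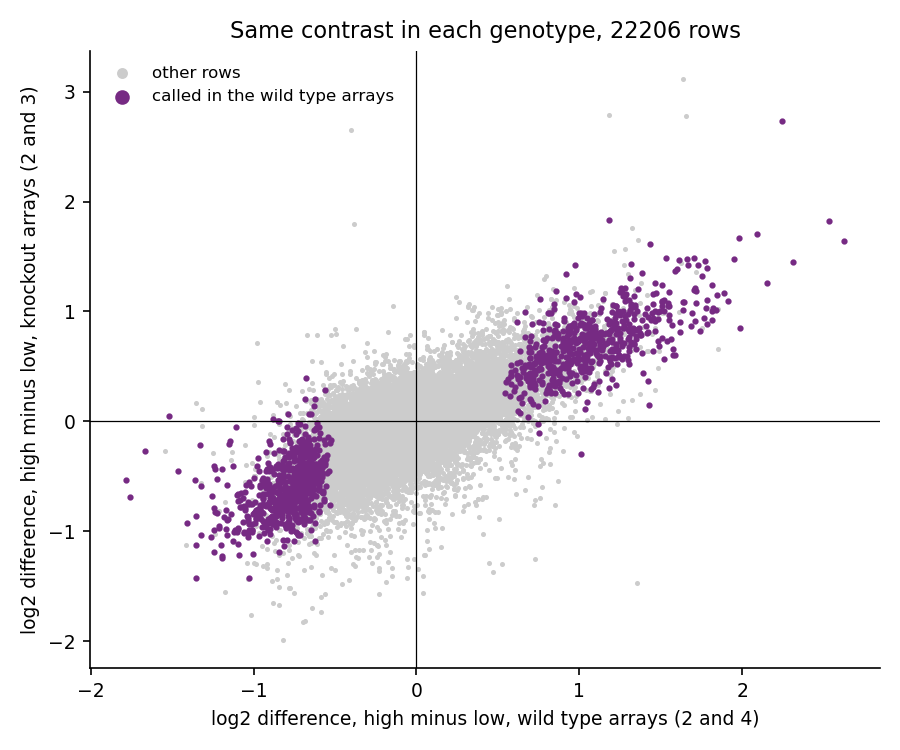
High minus low log2 difference of each gene row in the wild type arrays (x axis) and in the knockout arrays (y axis), with the 1356 rows called in the wild type arrays in purple and all other rows in grey. Of the purple points, 1341 have the same sign on both axes.

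Cyp1a1, the cytochrome P450 whose transcription the aryl hydrocarbon receptor (AHR) switches on, was the highest of the named genes. It read 10.95 and 11.53 in wild type 1 and 6 and 11.53 and 11.30 in knockout 3 and 4, and 6.73, 8.73 and 10.19 as the lowest, median and highest low-intron array. The sets did not overlap, and the difference was 2.48 ± 0.50 (SE; limma adjusted p = 0.0068), a 5.58-fold change. Tiparp, a member of the poly-ADP-ribose polymerase family and another AHR target, was chosen after its values were seen. It read 10.37, 10.99, 10.46 and 9.86 in those 4 arrays against 8.07, 9.01 and 9.81, a difference of 1.45 ± 0.29 (limma adjusted p = 0.0062).

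NRF2, the transcription factor that binds antioxidant response elements, drives enzymes that make and recycle glutathione and thioredoxin. Of 15 measured NRF2 targets, 8 (53.3%, beside 8.53% of all rows) were higher, 0 were lower and 7 did not pass. The median difference was 0.47 against -0.05 over all gene rows. The higher genes covered glutathione synthesis (Gclc and Gclm, the catalytic and modifier subunits of glutamate-cysteine ligase), glutathione reduction (Gsr), quinone reduction (Nqo1), the thioredoxin and peroxiredoxin system (Txnrd1, Prdx1 and Srxn1, which repairs oxidized peroxiredoxins) and NADPH supply (Me1, malic enzyme). Members that did not pass were Hmox1, Slc7a11, Txn1, Fth1, Ftl1, Gstm1 and Gsta3, with differences from -0.51 to 0.37. The count was 8 without wild type 1, without wild type 6 and without knockout 4 alike, and 4 without the 3 arrays of high Kdm5d signal. The list had been drawn up with earlier results of these arrays known, and its count is a description.

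The 250 bases before the transcription start are shown for 4 of the genes above, picked because their windows hold a match, as RefSeq gives them for GRCm38.p6, with matches in capitals to GCGTG, the core of the site that AHR binds, and to TGACNNNGC, the core of the antioxidant response element, each searched on both strands. Over all 32851 promoter windows of the table, 28.2% held GCGTG and 10.2% held TGACNNNGC, so a match is a description and not a site of binding. Cyp1a1 (chr9:57697363-57697612, plus strand) held GCGTG at position -54 from the start, and Tiparp (chr3:65528197-65528446, plus strand) held it at -170 on the opposite strand. Gclm (chr3:122245307-122245556, plus strand) held TGACNNNGC at -134 on the opposite strand and GCGTG at -187 and, on the opposite strand, at -238 and -12, and Prdx1 (chr4:116685349-116685598, plus strand) held TGACNNNGC at -133 on the opposite strand. Of the other higher NRF2 targets, Nqo1 and Me1 held neither motif in any listed window, Srxn1 held only GCGTG, and 1 of the listed windows of Txnrd1 held TGACNNNGC; Gclc and Gsr have no entry.
Cyp1a1: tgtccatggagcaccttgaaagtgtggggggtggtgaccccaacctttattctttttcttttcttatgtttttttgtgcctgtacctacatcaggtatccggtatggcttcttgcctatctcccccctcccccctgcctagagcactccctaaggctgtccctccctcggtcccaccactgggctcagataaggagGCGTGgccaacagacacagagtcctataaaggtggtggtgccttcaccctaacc
Tiparp: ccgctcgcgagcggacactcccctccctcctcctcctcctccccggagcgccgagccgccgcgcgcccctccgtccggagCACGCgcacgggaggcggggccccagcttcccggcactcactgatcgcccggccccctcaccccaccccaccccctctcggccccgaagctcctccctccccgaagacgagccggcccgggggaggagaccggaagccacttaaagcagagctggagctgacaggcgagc
Gclm: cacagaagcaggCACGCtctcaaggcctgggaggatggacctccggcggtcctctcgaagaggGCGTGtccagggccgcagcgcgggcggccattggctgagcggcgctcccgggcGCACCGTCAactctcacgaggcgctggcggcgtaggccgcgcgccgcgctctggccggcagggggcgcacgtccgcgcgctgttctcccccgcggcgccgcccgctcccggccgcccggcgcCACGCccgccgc
Prdx1: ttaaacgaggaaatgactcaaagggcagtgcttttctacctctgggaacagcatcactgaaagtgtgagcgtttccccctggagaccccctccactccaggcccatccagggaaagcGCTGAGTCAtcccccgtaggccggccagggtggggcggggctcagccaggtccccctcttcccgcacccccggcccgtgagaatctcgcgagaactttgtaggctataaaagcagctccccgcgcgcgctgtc

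Gclc read 11.60 and 11.58 in wild type 1 and 6 and 11.42 and 11.64 in knockout 3 and 4, against 9.48, 9.92 and 10.70 as lowest, median and highest low-intron array (difference 1.60 ± 0.19, limma adjusted p = 0.0011). Nqo1 read 9.33, 9.11, 9.32 and 9.31 against 7.38, 7.54 and 8.33 (1.57 ± 0.16, adjusted p = 0.00041). For both genes the 4 high-intron arrays lay close together and above every low-intron array, and the low-intron arrays were more widely spread. Gsr read 11.05, 10.87, 10.99 and 10.94 against 8.94, 9.38 and 9.93 (1.59 ± 0.15, adjusted p = 0.00041), and Srxn1 read 11.31, 11.26, 11.27 and 11.50 against 9.27, 9.64 and 10.71 (1.52 ± 0.23, adjusted p = 0.0026). Gclm and Prdx1, whose promoters are printed above, differed by 1.25 ± 0.21 and 0.47 ± 0.10, and Txnrd1 and Me1 by 0.58 ± 0.11 and 0.89 ± 0.20. All 8 genes were higher without overlap between the sets, as were 6.89% of all rows. In the same list 1 member that did not pass was lower without overlap, as were 7.17% of all rows.

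**Figure D4:**
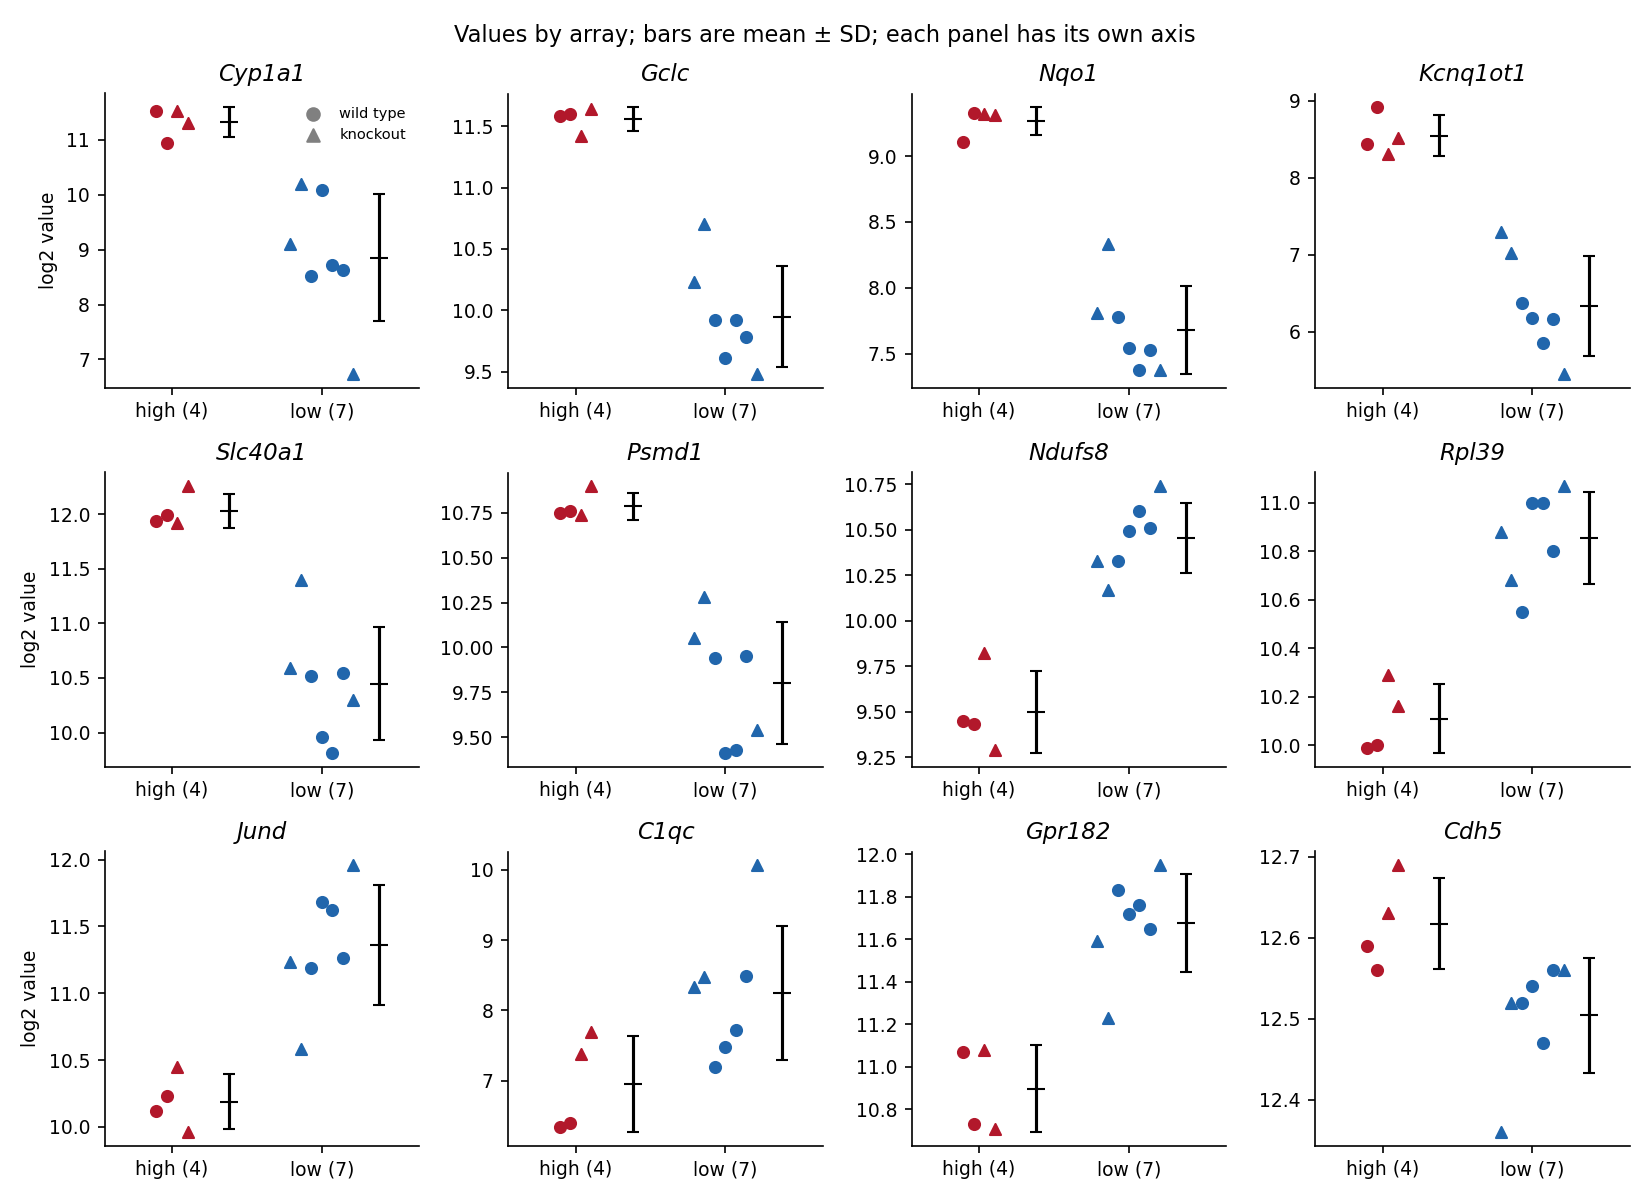
Log2 values (y axes, each panel with its own range that does not start at 0) of 12 genes in the 4 high-intron arrays (red) and the 7 low-intron arrays (blue), circles for wild type and triangles for knockout, with mean ± SD as bars. Cyp1a1, Gclc, Nqo1, Kcnq1ot1, Slc40a1 and Psmd1 are higher without overlap, Ndufs8, Rpl39, Jund and Gpr182 lower without overlap, C1qc lower with overlap, and Cdh5 did not pass (difference 0.11, adjusted p = 0.42).

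Other high genes had varied functions. Kcnq1ot1, a long noncoding RNA that stays in the nucleus and silences imprinted genes near Kcnq1, read 8.92, 8.44, 8.31 and 8.52 in wild type 1, wild type 6, knockout 3 and knockout 4, against 5.45, 6.18 and 7.30 (2.20 ± 0.29, limma adjusted p = 0.0015). The other 3 measured long noncoding RNAs of the nuclear list, Tug1, Norad and Miat, differed by 0.41, 0.20 and 0.06 and did not pass. Dock4, an exchange factor for small GTPases, read 10.59, 10.74, 10.37 and 10.63 against 8.28, 8.60 and 9.07 (1.91 ± 0.16, adjusted p = 0.00015). Slc40a1, the iron exporter ferroportin, read 11.99, 11.94, 11.92 and 12.26 against 9.81, 10.52 and 11.40 (1.55 ± 0.21, adjusted p = 0.0017).

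Several single genes from the top of the ranking are given here as single genes, with no count behind a shared function. Impact, an inhibitor of the kinase GCN2, differed by 1.83 ± 0.23 (limma adjusted p = 0.0014), and Asns, asparagine synthetase, by 1.37 ± 0.19 (adjusted p = 0.0019). Trp53inp1, a p53-induced nuclear protein, differed by 1.73 ± 0.24 (adjusted p = 0.0019), and Ccng1, cyclin G1, a p53 target chosen after its values were seen, by 1.46 ± 0.24 (adjusted p = 0.0030). Cd200r1, an inhibitory receptor known from myeloid cells, read 8.31, 8.50, 7.84 and 7.90 against 5.31, 6.38 and 7.48 (1.73 ± 0.37, adjusted p = 0.0089). Phxr4 and Suco, a SUN domain protein, differed by 1.90 and 1.60. Each of these 7 genes was higher in every high-intron array than in any low-intron array.

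The unfolded protein and integrated stress response list as a whole did not move together. Of its 18 measured genes, 3 (16.7%) were higher, 0 were lower and 15 did not pass, with a median of 0.13. The higher genes were Asns, Chac1 (a glutathione-degrading enzyme) at 0.47 and Creb3l2 (a transcription factor) at 0.47. Over all rows 8.53% were higher. In the brightest of 10 bins by level, where the list's median level of 10.5 fell, 18.6% were higher. The call of Chac1 was lost in 6 of the 11 fits with an array left out. Atf4, the main transcription factor of the integrated response, differed by 0.01, and Hspa5, the chaperone BiP, by 0.14. Of 13 heat shock genes, 3 (23.1%) were higher and 0 lower. The higher genes were Hsph1 at 0.99 and Hspa4 at 0.49, which release nucleotide from HSP70 chaperones, and Dnajb4, an HSP70 cochaperone, at 0.99. The inducible HSP70 genes Hspa1a and Hspa1b had differences of -0.36 and -0.21 and did not pass. The heat shock count was 1 without wild type 1.

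The proteasome degrades ubiquitin-marked proteins through a barrel of alpha and beta subunits with a regulatory cap. Of 30 measured subunits, 11 (36.7%, beside 8.53% of all rows) were higher, 0 lower and 19 did not pass, with a median of 0.21. The higher subunits were 4 of the alpha ring (Psma1, Psma3, Psma5 and Psma6), 2 ATPases (Psmc2 and Psmc5) and 5 other cap subunits (Psmd1, Psmd6, Psmd11, Psmd12 and Psmd14). Psmd1 read 10.76, 10.75, 10.74 and 10.90 against 9.41, 9.94 and 10.28 (0.97 ± 0.16, limma adjusted p = 0.0031). The 6 measured catalytic-ring (Psmb) subunits had differences from -0.26 to -0.04 and none passed. The count was 5 without wild type 1, 6 without wild type 6, 6 without knockout 4 and 2 without the 3 arrays of high Kdm5d signal.

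Splicing factors of the SR and hnRNP families bind nascent RNA in the nucleus. Among 28 measured, 27 had a positive difference, with a median of 0.33 (the exception was Hnrnpl at -0.31), and 5 passed (Srsf10 at 0.85, Rbm25 at 0.67, Srsf11 at 0.60, Hnrnpu at 0.53 and Hnrnpk at 0.33) while 0 of the list passed by limma without wild type 1 or without wild type 6, and 11 with arrays centred on their medians. The 5 higher splicing factors were 17.9% of their list, beside 8.53% higher of all rows. In the brightest of 10 bins by level, where the list's median level of 10.56 fell, 18.6% were higher. The share of calls was thus not larger than in rows of that level. Zinc finger genes named Zfp or Zkscan, which mostly encode nuclear DNA-binding proteins, numbered 384. Of these, 71 (18.5%) were higher and 14 (3.65%) lower, beside 8.53% and 10.0% of all rows, with a median of 0.13. Zfp418 read 7.57, 7.52, 7.50 and 7.64 against 5.71, 5.76 and 6.79 (1.51 ± 0.20, limma adjusted p = 0.0014), and Zfp451 and Zfp607b differed by 1.20 and 0.80. The zinc finger count of higher genes was 34 without wild type 1 and 37 without wild type 6.

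**Figure D5:**
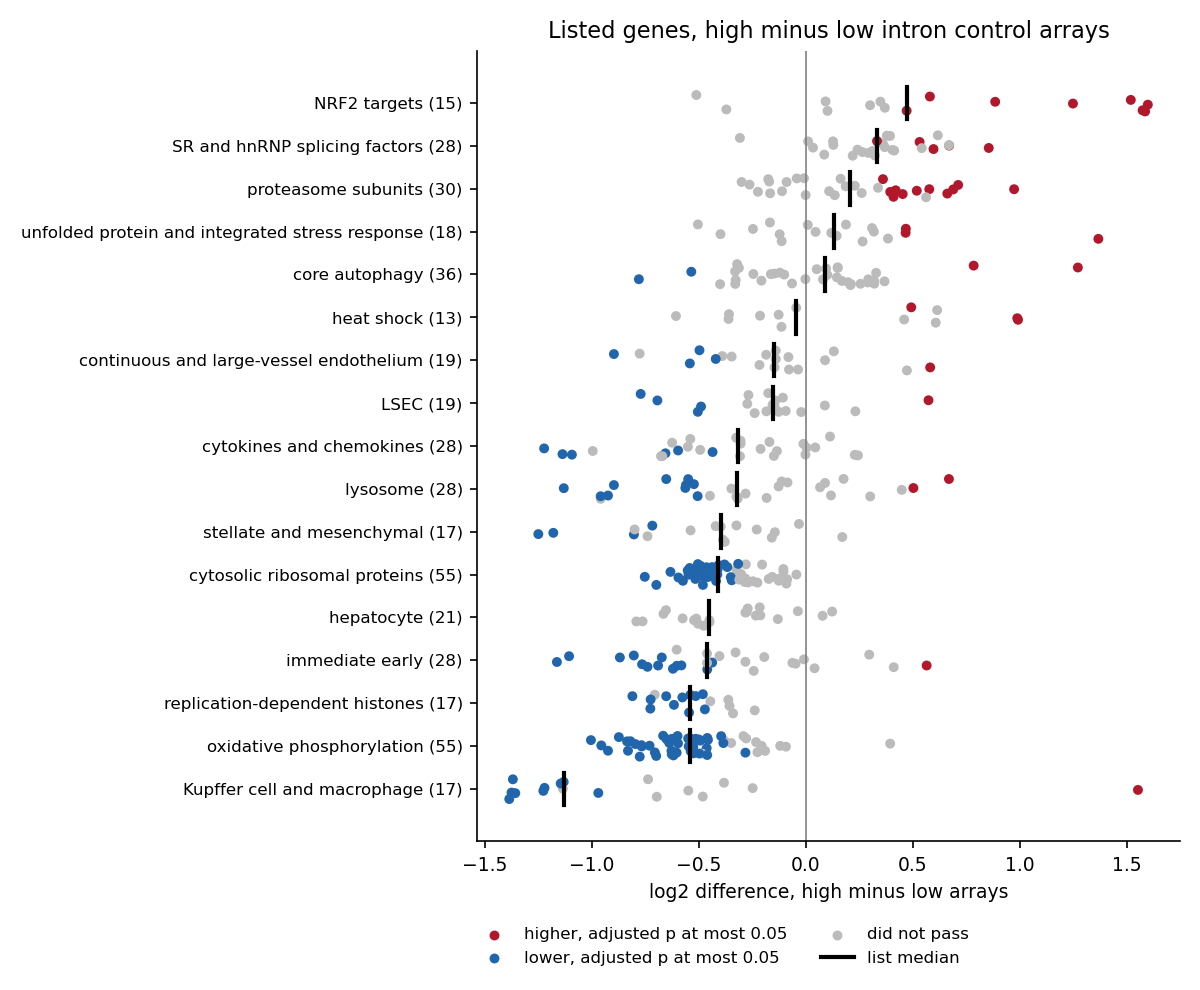
High minus low log2 difference (x axis) of every measured gene in 17 lists (y axis, number measured in brackets), red and blue where a gene passed an adjusted p of 0.05 upward or downward and grey where it did not; black bars are list medians. Medians run from -1.13 for Kupffer cell and macrophage genes to 0.47 for NRF2 targets, and oxidative phosphorylation and ribosomal protein genes lie almost wholly below 0.

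Genes of mitochondrial respiration and of the ribosome were lower as groups, at 78.2% and 63.6% of those measured, beside 10.0% of all rows. Of 55 measured subunits of the oxidative phosphorylation complexes, which pass electrons along the inner mitochondrial membrane and make ATP, 43 were lower, 0 higher and 12 did not pass, with a median of -0.54; 54 of the 55 had a negative difference, the exception being the complex I subunit Ndufs1 at 0.39, which did not pass. Ndufs8, a complex I subunit, read 9.43, 9.45, 9.82 and 9.29 in wild type 1, wild type 6, knockout 3 and knockout 4, against 10.17, 10.49 and 10.74 (-0.96 ± 0.13, limma adjusted p = 0.0020). Ndufs3 and Ndufa13 differed by -0.87 and -0.82. The count stayed between 33 and 46 with any single array left out, and was 21 without the 3 arrays of high Kdm5d signal.

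Of 55 measured cytosolic ribosomal proteins, 35 were lower, 0 higher and 20 did not pass, and all 55 had a negative difference, with a median of -0.41. Rpl39, a small protein of the large subunit, read 10.00, 9.99, 10.29 and 10.16 against 10.55, 10.88 and 11.07 (-0.75 ± 0.12, limma adjusted p = 0.0028). Rps21 and Rps29 of the small subunit differed by -0.70 and -0.54. The plot of listed genes shows how narrow this group was, from -0.75 to -0.04. Ribosomal protein genes have many processed copies in the genome, which probes may not tell apart. The count was 16 without wild type 6, 18 without wild type 1 and 4 without the 3 arrays of high Kdm5d signal.

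Replication-dependent histone genes make messenger RNA that ends in a stem-loop in place of a poly(A) tail. Of 17 measured, 11 (64.7%, beside 10.0% of all rows) were lower and 0 higher, with a median of -0.54 and differences from -0.81 to -0.24. Among the lower genes, H3c1 had a mean level of 3.34, below the antigenomic mean of every array. H1f2, a linker histone, read 7.39, 7.18, 7.25 and 7.26 against 7.68, 7.80 and 8.42 (-0.62 ± 0.14, limma adjusted p = 0.010). The count was 1 without wild type 1, 2 without wild type 6, 2 without knockout 4, 7 without knockout 2, and 6 with arrays centred on their medians. Of 28 genes of DNA replication and mitosis, 1 was lower (Cenpa, the centromeric histone, at -0.57) and 0 higher.

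Immediate early genes are transcribed within minutes of a stimulus, tissue digestion included, and their messages are short-lived. Of 28 measured, 13 (46.4%, beside 10.0% of all rows) were lower, 1 higher and 14 did not pass, with a median of -0.46. Jund, an AP-1 subunit, read 10.23, 10.12, 10.45 and 9.96 against 10.58, 11.26 and 11.96 (-1.16 ± 0.21, limma adjusted p = 0.0047). The AP-1 subunits Fosb and Fos differed by -1.11 ± 0.19 and -0.76 ± 0.18, and the nuclear receptor Nr4a1 by -0.87 ± 0.18. The 1 higher member was Klf6, a zinc finger factor, at 0.56 ± 0.13, while Jun, Atf3 and Dusp1 had differences of -0.24, -0.33 and -0.01 and did not pass. The lower count was 6 without wild type 6, 7 without wild type 1 and 2 without the 3 arrays of high Kdm5d signal.

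Among the lowest single genes were Socs3 and Cish, both feedback inhibitors of cytokine receptors; no list of such inhibitors was tested. Socs3, which STAT3 induces, read 9.24, 9.11, 9.36 and 8.94 against 9.37, 10.42 and 11.03 (-1.24 ± 0.25, limma adjusted p = 0.0064), and Cish, which STAT5 induces, differed by -1.22 ± 0.25 (adjusted p = 0.0068). Of 28 cytokines and chemokines, 6 (21.4%, beside 10.0% of all rows) were lower and 0 higher, with a median of -0.32. In the eighth of 10 bins by level, where the list's median level of 8.53 fell, 17.8% were lower. Cxcl13, a B cell chemoattractant, Ccl4 and Ccl6 differed by -1.22, -1.14 and -1.09, while Il6, Ccl2, Ccl5, Ccl7, Cxcl2 and Il10 had differences from -0.49 to 0.11 and did not pass. The cytokine count was 1 without wild type 6 or knockout 3, 2 without wild type 1, and 2 with arrays centred on their medians.

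Of 27 interferon-stimulated genes, 5 (18.5%) were lower and 2 (7.41%) higher, beside 10.0% and 8.53% of all rows. The list was bright, with a median level of 10.96. In the brightest of 10 bins of all rows by level, 18.9% were lower and 18.6% higher, so neither share was larger than in rows of that level. The median was -0.10, and -0.20 without wild type 1. Irf1 and Irf7, transcription factors of the response, differed by -0.64 and -0.65. Rsad2, the antiviral enzyme viperin, differed by 0.63, and Ifih1, an RNA sensor, by 0.65. The lower count was 2 without wild type 6 and 3 without wild type 1, wild type 5, knockout 1 or knockout 4, and the higher count was 0 (by limma) without wild type 1.

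Markers of Kupffer cells, the resident macrophages of the sinusoid, were the lowest list. Of 17 measured, 9 (52.9%, beside 10.0% of all rows) were lower, 1 higher (Slc40a1, which endothelium and hepatocytes also express) and 7 did not pass. The median was -1.13. C1qc, a chain of complement C1q, read 6.40, 6.34, 7.38 and 7.69 in wild type 1, wild type 6, knockout 3 and knockout 4, against 7.20, 8.33 and 10.07 (-1.39 ± 0.30, limma adjusted p = 0.0092). C1qa and C1qb differed by -1.23 and -1.22, Aif1 by -1.37, Lyz2, lysozyme, by -1.36, and Cd5l, a macrophage-secreted protein, by -1.37. The 9 lower genes all overlapped between sets. The mean of the whole list ran from 7.20 to 8.13 in the high-intron and from 7.18 to 10.07 in the low-intron arrays, with knockout 2 the highest and wild type 3 the lowest of all 11.

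The macrophage count depended on single arrays. The count of lower members was 4 without each of wild type 1, wild type 5, wild type 6, knockout 3 and knockout 4, 5 without wild type 2 or wild type 4 and 6 without knockout 5; it was 4 with arrays centred on their medians and 0 (by limma) without the 3 arrays of high Kdm5d signal. Clec4f and Timd4, which are specific to Kupffer cells in the liver, had differences of -1.14 and -0.48 and did not pass, and neither did Vsig4 at -0.74 and Adgre1 at -0.55. In such bulk samples fewer macrophages and less RNA per macrophage cannot be told apart. The part of macrophage RNA in the other results was not tested beyond a fit with the hepatocyte and macrophage list means as terms, in which 132 rows were called.

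Hepatocyte genes varied between arrays in both sets. Of 21 measured, 0 were higher and 0 lower by limma, although 19 had a negative difference, with a median of -0.45 that ran from -0.58 (without knockout 5) to -0.26 (without knockout 2) with each array left out; 1 passed an unadjusted p of 0.05 with a fold of at least 1.5, the heme carrier Hpx at -0.79 (adjusted p = 0.10). Albumin (Alb) read 13.03, 12.33, 12.50 and 11.68 in wild type 1, wild type 6, knockout 3 and knockout 4, against 12.11, 12.52 and 13.31 (-0.13, limma adjusted p = 0.72). The mean of the list ran from 7.79 to 9.29 in the high-intron and from 7.99 to 10.1 in the low-intron arrays.

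Of 17 stellate and mesenchymal genes, 4 (23.5%, beside 10.0% of all rows) were lower and 0 higher, with a median of -0.40. In the eighth of 10 bins by level, where the list's median level of 8.11 fell, 17.8% were lower. The lower genes were Col3a1, a fibrillar collagen, at -1.25, Des, desmin, at -1.18, Pdgfrb at -0.80 and Cygb, a stellate cell globin, at -0.72. Col3a1 read 6.26, 6.33, 6.90 and 8.37 against 7.58, 7.90 and 9.37, so that knockout 4 lay among the low-intron arrays. The count was 1 without wild type 6, 2 without each of wild type 1, 2 and 5 and knockout 2 and 3, and 0 (by limma) without the 3 arrays of high Kdm5d signal.

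Markers of the labelled cell type were high in both sets. The mean of 19 sinusoidal endothelial genes ran from 11.5 to 11.7 in the high-intron and from 11.6 to 11.9 in the low-intron arrays. Of these genes, 4 (21.1%) were lower, 1 (5.26%) higher and 14 did not pass, beside 10.0% lower and 8.53% higher of all rows. In the brightest of 10 bins by level, where the list's median level of 12.1 fell, 18.9% were lower and 18.6% higher. The lower share was thus near that of rows of that level. Gpr182, a chemokine-scavenging receptor, read 10.73, 11.07, 11.08 and 10.71 against 11.23, 11.72 and 11.95 (-0.77 ± 0.14, limma adjusted p = 0.0045). Maf, a transcription factor of sinusoidal identity, Stab1, a scavenger receptor, and Flt4, the receptor VEGFR3, differed by -0.69, -0.50 and -0.49, all without overlap.

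Coagulation factor F8, which in the liver comes from this endothelium, was the 1 higher sinusoidal gene, at 12.74, 12.67, 12.52 and 12.57 against 11.39, 12.18 and 12.34 (0.57 ± 0.17, limma adjusted p = 0.031). Lyve1, Stab2, Kdr and Clec4g had differences of -0.11, -0.18, -0.27 and -0.15 and did not pass. The lower count was 2 without wild type 1, and the call of F8 was lost without wild type 1, 4 or 6 or knockout 3 or 4.

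Of 19 genes of continuous and large-vessel endothelium, 4 (21.1%) were lower and 1 (5.26%) higher, beside 10.0% and 8.53% of all rows. In the ninth of 10 bins by level, where the list's median level of 8.71 fell, 18% were lower and 21.3% higher. Cd34, a sialomucin of capillary endothelium, read 8.13, 8.24, 8.77 and 8.69 against 8.84, 9.37 and 9.70 (-0.90 ± 0.16, limma adjusted p = 0.0045). Plvap, the protein of fenestral diaphragms, Gja4, a gap junction protein, and Apln, apelin, differed by -0.54, -0.50 and -0.42, and Efnb2, an arterial ephrin, by 0.58 ± 0.12 (limma adjusted p = 0.0083). Apln had a mean level of 4.65, below the antigenomic mean of every array, so its call is at the level of unspecific signal. The lower count was 1 without wild type 1, wild type 6, knockout 2 or knockout 3, 2 without wild type 2, wild type 4 or knockout 4, and 1 with arrays centred on their medians.

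Among genes of other blood and biliary cell types few or none passed. All 13 neutrophil genes had a negative difference, with a median of -0.30, as did 10 of 11 cholangiocyte genes, with a median of -0.24. The list mean of T and NK cell genes ran from 5.6 to 6.05 in the high-intron and from 5.45 to 6.31 in the low-intron arrays, and that of neutrophil genes from 6.07 to 6.78 and from 6.05 to 7.61. Of 17 T and NK cell, 13 neutrophil, 6 erythroid and 11 cholangiocyte genes, 0 passed in either direction by limma. Of 13 B and plasma cell genes 1 was higher (Cr2 at 0.57), of 7 platelet and megakaryocyte genes 1 was lower (Pf4 at -0.34), and of 14 dendritic cell genes 1 was higher (Clec9a, a receptor for dead cells, at 1.18) and 2 lower (Irf8 at -0.50 and Flt3 at -0.42). These shares are near the 8.53% higher and 10.0% lower of all rows or rest on 1 gene. Flt3 had a mean level of 4.80, within the range of the antigenomic means of the arrays, 4.67 to 5.17. The call of Cr2 was lost without wild type 6, that of Pf4 in 7 of the 11 fits with an array left out, that of Clec9a in 8, and both lower dendritic cell calls without wild type 6.

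Lysosomal genes, which encode the acid hydrolases and membrane proteins that break down what endocytosis and autophagy deliver, were lower in part. Of 28 measured, 10 (35.7%) were lower, 2 (7.14%) higher and 16 did not pass, with a median of -0.32. Over all rows 10.0% were lower and 8.53% higher. The glycosidase Naglu read 8.10, 8.27, 8.34 and 8.34 against 8.87, 9.22 and 9.67 (-0.96 ± 0.14, limma adjusted p = 0.0020), the protease Ctsz differed by -0.92 ± 0.15 and the calcium channel Mcoln1 by -0.65 ± 0.11. The 2 higher members, Atp6v1h at 0.67 and Atp6v1a at 0.50, both encode subunits of the cytosolic part of the proton pump. The lower count was 6 without wild type 6 and 2 without the 3 arrays of high Kdm5d signal.

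Of 36 core autophagy genes, 2 (5.56%) were higher and 2 (5.56%) lower, with a median of 0.09. Both shares were below the 8.53% higher and 10.0% lower of all rows, so the genes below are given as single genes. Rb1cc1, a scaffold of the kinase complex that starts autophagy, read 8.50, 8.38, 8.30 and 8.28 against 6.11, 7.15 and 7.92 (1.27 ± 0.30, limma adjusted p = 0.013), and Tax1bp1, a cargo receptor, differed by 0.78 ± 0.21. Calcoco1, another receptor, differed by -0.78 ± 0.15 and Wipi1, a phosphoinositide-binding protein, by -0.53. Both higher calls were lost without wild type 1 and without wild type 6. Atg5 itself read 7.55, 7.59, 7.54 and 7.90 against 7.38, 7.52 and 7.57 and did not pass (0.15 ± 0.10, adjusted p = 0.34).

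Genes of tissues other than liver were counted as well, and the part of unspecific signal in their values was not tested. Of 1080 olfactory receptor genes, 22 (2.04%) were higher and 3 (0.278%) lower, with a median of 0.02. The higher count was 4 without wild type 6 and 49 with arrays centred on their medians. Of 337 vomeronasal receptor genes 22 (6.53%) were higher and 2 (0.593%) lower, with a median of 0.06, and the higher count was 5 without wild type 6, 6 without knockout 4 and 37 after centring. Of 23 sperm and testis, 25 keratin and cornified skin, 22 synapse and ion channel, 8 protocadherin and 80 defensin and seminal genes, 3 were higher and 5 lower, with list medians from -0.10 to 0.01. Of all rows 8.53% were higher and 10.0% lower. Predicted genes named Gm or Rik numbered 960, with 60 (6.25%) higher and 33 (3.44%) lower, beside 8.53% and 10.0% of all rows. The counts were 23 and 13 without wild type 6, 36 and 12 without wild type 1, and 90 and 18 after centring. Olfactory and vomeronasal genes are dim, with median levels of 4.39 and 4.05. In the 2 dimmest of 10 bins of all rows by level, 2.97% and 3.06% were called higher. The olfactory share of 2.04% lay below these and the vomeronasal share of 6.53% above them.

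Rows placed on the Y chromosome stood apart from the other rows in the sign of their differences, through 2 of the 4 high-intron arrays. Of 219 such rows, 194 had a positive difference, with a median of 0.38, where 42.3% of all rows had a positive one. Of the 219, 25 were higher and 2 lower, beside 8.53% and 10.0% of all rows. The mean of the Y rows was 5.62 in wild type 6 and 5.40 in knockout 3, 4.54 in wild type 1 and 4.61 in knockout 4. It ran from 4.51 to 4.77 in the low-intron arrays, so wild type 1 and knockout 4 lay within that range. Kdm5d itself was high in wild type 6, knockout 3 and the low-intron array wild type 3 and did not pass (1.04 ± 0.75, limma adjusted p = 0.37). The labels used here give no sex of the mice, and its part in these values and in the fits without those 3 arrays was not tested.

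The differences were not spread evenly over signal level. When the gene rows were split into 10 equal bins by mean over arrays, in the dimmest bin the median difference was 0.00 and 2.97% were called higher and 1.12% lower. In the seventh bin, with mean log2 values from 7.23 to 7.85, the median was -0.11 and 9.41% were higher and 14.4% lower. In the brightest bin the median was again 0.00, with 18.6% higher and 18.9% lower. Shares of bright lists, set above beside those of all rows, are thus also to be read against these.

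The array sets also bore on the comparison of genotypes that the study made. Atg5 was not lower in the arrays labelled knockout, at 7.48, 7.57, 7.54, 7.90 and 7.53 for knockout 1 to 5 against 7.38 to 7.59 in the wild type arrays; which exons its probes cover was not known, so this checks no label. By the study's rule 149 rows (0.671%) were higher and 79 (0.356%) lower in the knockout arrays when genotype was the only term, and 186 (0.838%) and 87 (0.392%) when the array set was a term beside it. Of the 228 rows called without the array set, 225 were called with it in the same direction. By an adjusted p of 0.05, 0 rows were called in either fit by limma, with 1419 and 2030 rows at an unadjusted p under 0.05. The median residual SD of a row fell from 0.24 to 0.21. In the 7 low-intron arrays alone (4 wild type and 3 knockout), 359 rows passed the study's rule. There too 0 rows passed an adjusted p of 0.05 by limma, with 1598 at an unadjusted p under 0.05. The study's rule uses unadjusted p-values, so its larger counts do not show a clearer genotype difference.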

How the data were processed

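The authors deposited log2 values of 11 mouse whole-transcript arrays (Clariom S), made from 100 ng of total RNA each with Affymetrix Expression Console and RMA, per the labels and the submitters' processing notes; versions and settings are not given in the sources used here. Values ran from 1.86 to 13.79 and were used unchanged. Of the rows, 22206 were gene rows and 6640 control rows; 19572 gene rows had 1 symbol and 2634 none, and for the 55 symbols with several rows the brightest was used.

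The array sets were formed from the intron control rows of these same data and are not the study's groups. Gene rows were fitted in R 4.3.3 with limma 3.58.1 with array set and genotype as terms and Benjamini-Hochberg adjustment at 0.05; array means were tested by two-sided exact permutation. The fit was tested on simulated data. The labels call the arrays biological replicates without naming animals, so the tests read only the spread among these arrays, which may be technical. The number of arrays limits the precision.

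Named genes were the 12 highest and 12 lowest called genes above the antigenomic mean, up to 3 members per list by p, a fixed set including Atg5, Alb and Cdh5, and members singled out after their values were seen; sex-linked, predicted and receptor-cluster genes were left out of the first step. The members and the 40 gene lists, 38 of them with measured genes, were chosen with earlier results of these data known. Alternatives covered scaling, filters, moderation, array weights, added terms, genotype subsets and each array left out. Replicate numbers of the genotypes did not pair the arrays.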

Additional observations from a re-analysis of the deposited data

Results flagged for a closer look

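A single array stood far from the others of its set in 21 of 264 sets of values looked at (7.95%; chance alone gives about 5%). Knockout 3 had the highest exon control mean of the high-intron arrays, 8.67, and the highest oxidative phosphorylation list mean, 9.24, and DNA replication and mitosis list mean, 6.85. The lys spike-in control read 8.24 in knockout 3 and 8.30 in wild type 2, against 5.52 to 5.78 and 5.61 to 6.14 in the other arrays of each set.

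Knockout 2 stood above the other low-intron arrays for the DNA replication and mitosis mean (7.44), the lysosome mean (10.7), C1qb (11.11), H1f2 (8.42) and Des (8.16). Wild type 4 had the lowest interferon-stimulated mean of that set, 10.1, and knockout 5 the highest Prdx1, 12.68.

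Among the high-intron arrays, knockout 4 stood above the others for Psmd1 (10.90), Cygb (8.57), Pdgfrb (8.52) and Atg5 (7.90). Wild type 1 stood above them for Suco (10.95) and Hsph1 (10.80). Wild type 6 stood below them for the immediate early mean (9.87), Nqo1 (9.11) and Rsad2 (12.29). The part of these arrays in each result was measured only by leaving each array out in turn.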

How the results depend on the processing

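Across 28 alternative settings, all 4117 called rows that were tested kept their direction except with the antigenomic mean as a term, where 93.6% did. The rows had been called in these same arrays, so the kept direction is a description and no independent check. The count of calls was 1 with the replicate number as a block, 132 with hepatocyte and macrophage means as terms and 0 with the antigenomic mean as a term. It was 1356 in wild type arrays only, 0 in knockout arrays only and 1285 at an adjusted p of 0.01. It was 779 without the arrays of high Kdm5d signal, 2810 with Kdm5d above 5 as a term, and 1700 to 4502 with each array left out. By the study's fold rule it was 1605 with the cell type means, 1407 with the antigenomic mean, 3992 without low-intron arrays above 5.2 (chosen after seeing the data), and 1828 to 2935 with each array left out. Array measures with each array left out ranged from -0.32 to -0.24 (antigenomic), -0.089 to -0.074 (gene median), -0.15 to -0.096 (ERCC; exact permutation p = 0.029 without knockout 1 and 0.048 without knockout 2) and -0.0088 to 0.033 (exon controls, which gave -0.012 as the median of rows). After repeated quantile normalization the fifth, sixth and seventh of 10 bins by level had medians of -0.024, -0.030 and -0.045. With the antigenomic term, Rbm25 was -0.017, H3c3 0.016, Clec9a -0.30, Serpina1a 0.21 and Gapdh 0.022. With cell type means, Il6 was 0.40, Il10 0.15 and Vsig4 0.21; under the block, Il6 was 0.11, and Ccl2 ranged from -0.054 (without knockout 4) to 0.25 (without knockout 3) with each array left out. The cause of these changes was not tested. The replicate numbers shared no more than a number, with correlations from -0.32 to 0.39.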
